A study of Caenorhabditis elegans with 4 samples.

Results

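Chromosome III of Caenorhabditis elegans carried 2922 of the 15152 AMA-1 peaks in the list deposited for the whole series. It carried 517 of the 2838 peaks listed for ChIP replicate 1 and 531 of the 2843 listed for ChIP replicate 2. The members are all peaks assigned to III in those 3 lists, with no selection by score or width, and the series-wide peaks form the main set. The material was mixed-stage embryos of strain N2 with a wild-type genotype, from a population of males and hermaphrodites, and the series lists 20 degrees Celsius. Chromatin was immunoprecipitated in 2 libraries with a polyclonal antibody to AMA-1 that was raised in rabbits and affinity-purified, and sequenced, beside 2 libraries of input DNA, for which no peak list was analysed here. All 4 libraries were grown under a protocol for RNAi and share the tag RiIMB1, whose meaning is not spelled out, so the peaks cannot be taken as those of untreated embryos and there is no contrast with another RNAi condition. The labels do not tie the replicates to separate cultures, so their spread may be technical.

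AMA-1 is the largest subunit of RNA polymerase II, the enzyme that transcribes protein-coding genes and many small non-coding RNAs. In ChIP-seq its occupancy is read as DNA recovered with the antibody, typically near gene starts and over the bodies of transcribed genes. In C. elegans many genes are packed closely together and some are transcribed as operons, so that neighbouring genes can give 1 unbroken stretch of polymerase. The autosomes of this worm have a gene-rich central region with little recombination, flanked by arms that hold more repeats and recombine more. Chromosome III is an autosome, and like the others it has no single centromere. Positions are in WormBase WS220 coordinates, counted from 1. They are given without gene names, because the annotation at hand describes another assembly.

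The 3 lists described III at different grain. The series-wide list gave short intervals of 336.5 bp at the median and 219 to 680.8 bp between the quartiles. They covered 2.26 Mb, or 16.4% of the 13.8 Mb between position 1 and the last peak end. Replicate 1 peaks had a median width of 2940 bp and covered 2.52 Mb (18.3%). Replicate 2 peaks had a median width of 2647 bp and covered 2.25 Mb (16.3%). A replicate peak was therefore usually a block that held several series-wide peaks. On average a replicate 1 peak held 3.5 of them and at most 22, and a replicate 2 peak held 2.95 and at most 15. The series-wide peaks filled a median of 63.2% of each replicate 1 peak and 67.8% of each replicate 2 peak. No series-wide peak was found in 1 replicate 1 peak and in 3 replicate 2 peaks.

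Set against the other 5 chromosomes, III was crowded. It held 212.2 series-wide peaks per Mb, against 85.4 (X) to 214.8 (I) on the others. Its density was 1.32 times the mean of I, II, IV and V (interval 1.27 to 1.37, for counting error alone). The covered share ranked the same way, at 16.4% of III against 6.58% (X) to 17.2% (I). III was likewise second to I in the replicate lists, with 37.5 peaks per Mb in replicate 1 and 38.6 in replicate 2, against at most 38.5 and 40.9 on I. Median width and median score of the series-wide peaks lay within the range of the other chromosomes, at 336.5 bp against 317 to 360 bp and at 5.86 against 5.73 to 5.92. With 1 chromosome against 5, no exact permutation can give a p below 0.167, so these ranks are descriptions and were not tested.

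**Figure D1:**
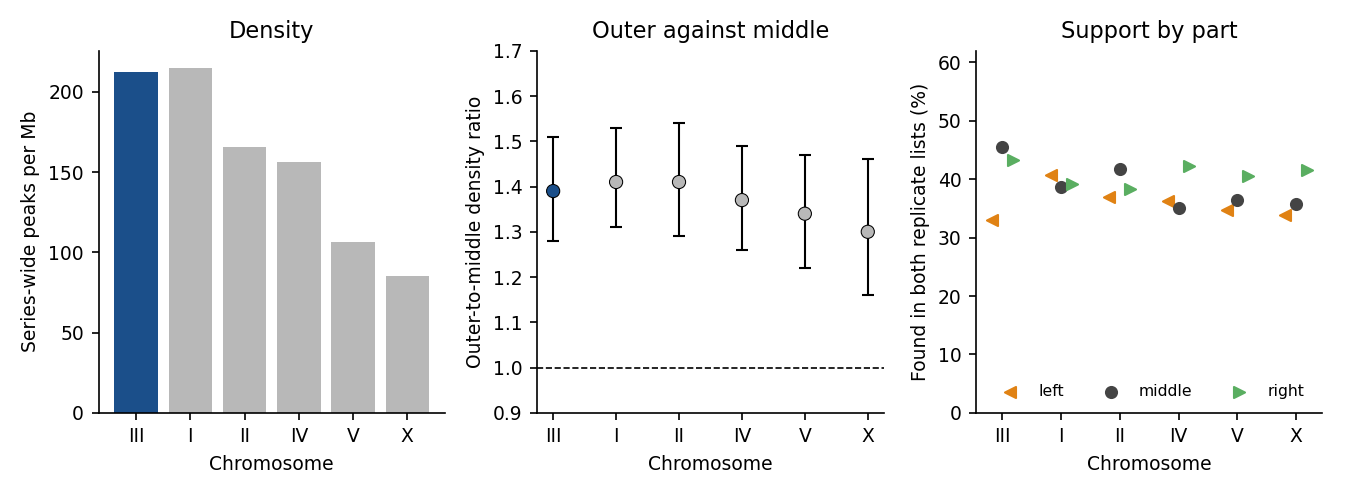
Series-wide AMA-1 peaks by chromosome, with III first: peaks per Mb (left panel), the ratio of peak density in the outer to the middle part with its interval from the exact binomial share (centre panel), and the percentage of peaks found in both replicate lists in the left, middle and right part (right panel). III stands second in density with 212.2 per Mb, its outer-to-middle ratio of 1.39 lies inside the range of the others, and its left part has the lowest support of all parts shown, at 33.0%.

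Support from the replicate lists was first taken over the whole of III. A series-wide peak counted as found when it overlapped a replicate peak by at least 1 bp. Of the 2922 peaks, 1171 (40.1%, 95% Wilson interval 38.3 to 41.9%) were found in both replicate lists, against 38.7% over all chromosomes. A further 629 (21.5%) were found in replicate 1 only, against 23.0% over all chromosomes, and 377 (12.9%) in replicate 2 only, against 12.2%. The remaining 745 (25.5%, interval 23.9 to 27.1%) were in neither list, against 26.2%. These shares lie near those of the whole series. The intervals treat peaks as independent, which neighbours are not. The series-wide list is deposited for the series that holds both replicates, so the replicate lists are not independent support for it.

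Peaks found in both lists tended to be wider, and they held most of the bases in series-wide peaks of III. Their median width was 635 bp, against 298 bp for peaks in replicate 1 only, 316 bp for peaks in replicate 2 only and 234 bp for peaks in neither. They held 66.3% of the covered bases, and the peaks in neither list held 10.4%. By width, 81.5% of the 130 peaks of 3 kb or more were in both lists, against 19.7% of the 960 peaks under 250 bp. Those 130 wide peaks were 4.45% of the members and held 34.7% of their bases. A wide peak meets the rule of 1 bp more easily, so support rises with width in part by construction. Base shares count the whole width of a peak, also where a replicate peak overlapped only a part of it. Higher scores went with greater widths, with a Spearman's rho of 0.70 across the 2922 series-wide peaks, 0.78 across the 517 of replicate 1 and 0.85 across the 531 of replicate 2. These are correlations across peaks of 1 list, given as descriptions.

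**Figure D2:**
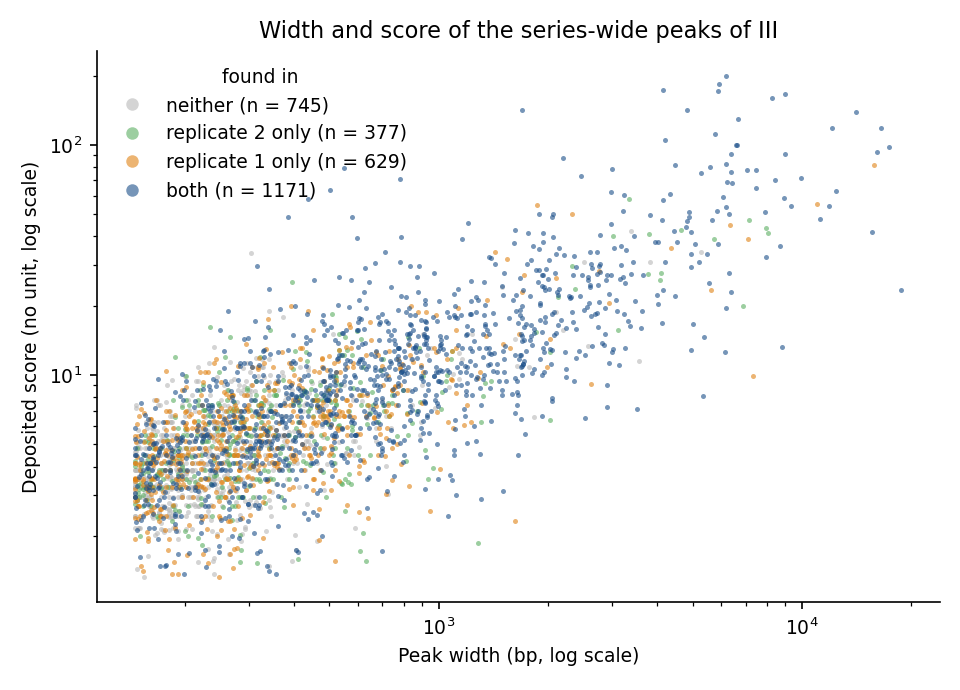
Width in bp (x, log scale) and deposited score without unit (y, log scale) of the 2922 series-wide peaks of III, coloured by the replicate lists that hold them. Peaks found in both lists (1171) reach the highest score of 199.43 and fill the upper right, and those in neither list (745) lie mostly at the lower left, with a median width of 234 bp.

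Support was highest among the peaks of highest score, without a steady rise at the low end. In the lowest 10% of scores (1.32 to 2.95), 25% of 292 peaks were in both lists, in the next 10% 17.5% and in the 10% after that 23.6%. In the highest 10% (18.25 to 199.43) it was 83.6% of 293 peaks (interval 78.9 to 87.4%), with 8 peaks in neither list. The same share over all chromosomes, each with its own best 10%, was 89.9%, and the other 5 chromosomes ranged from 87.4% (II) to 95.4% (X). III was thus the lowest of the 6, a rank that was not tested.

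Replicate peaks gave a matching picture of shared blocks with a tail of blocks in 1 list. On III 378 of the 517 blocks of replicate 1 (73.1%, interval 69.1 to 76.8%) met a block of replicate 2, against 71.8% over all chromosomes. In the other direction it was 409 of 531 (77.0%, interval 73.3 to 80.4%), against 77.0% over all chromosomes. Shared blocks were wider than unshared ones, with medians of 3861 and 1970 bp in replicate 1 and of 3177 and 1780.5 bp in replicate 2. Wide blocks also meet an overlap of 1 bp more easily. The lists had 1.77 Mb in common, which was 70.2% of the replicate 1 bases and 78.9% of the replicate 2 bases. Of the best-scoring 25% of each list on III, 92.3% of replicate 1 and 94.0% of replicate 2 blocks were shared, against 47.3% and 55.3% of the lowest 25%. Higher-scoring blocks tended to be wider, and these shares were not taken over all chromosomes, so they do not set III apart.

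Where blocks matched singly, their edges lay close together. There were 281 pairs in which 1 replicate 1 peak overlapped 1 replicate 2 peak and neither overlapped another. Their starts differed by a median of 226 bp and their ends by 273 bp, and 166 of the 281 were wider in replicate 1, with a median width ratio of 1.03. The rank correlation of scores across these pairs was 0.63, against 0.73 (V) to 0.81 (IV) on the other chromosomes, and that of widths was 0.74, against 0.80 to 0.83. III was the lowest of the 6 in both, again without a test. In the remaining overlaps blocks were cut differently, with 49 replicate 1 peaks that spanned 2 or more replicate 2 peaks and 29 replicate 2 peaks that spanned 2 or more replicate 1 peaks. Of the distances between neighbouring blocks, 62 of 516 in replicate 1 (12.0%) and 58 of 530 in replicate 2 (10.9%) were at most 250 bp.

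Peaks at the score ceiling were scarcer on III than elsewhere in both replicate lists. Many replicate peaks share a score of exactly 3100 and a few lie above it, so those at or above 3100 were treated as tied. On III 36 replicate 1 peaks (6.96%) reached it, against 10.1% over all chromosomes and 8.64% (I) to 13.9% (X) on the other 5. In replicate 2 it was 21 peaks (3.95%), against 6.86% over all chromosomes and 6.66% (I) to 8.79% (X) on the other 5. The blocks at the ceiling were broad, with median widths of 9873.5 and 9483 bp, against 2753 and 2507.5 bp for the other blocks of III. All but 1 of the 36 overlapped a replicate 2 peak, and 19 of them one that was also at the ceiling. The median replicate score was also lowest on III, at 237.31 in replicate 1 against 261.11 to 318.26 on the others and at 187.88 in replicate 2 against 208.28 to 286.38.

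Along the chromosome, the peaks of each full list were denser on both sides than in the middle. III was divided into 3 parts of equal length, with boundaries at 4590826 and 9181653, which are not the genetic limits of arms and centre. The left part held 1076 series-wide peaks (234.4 per Mb), the middle part 772 (168.2 per Mb) and the right part 1074 (233.9 per Mb). The outer parts together were 1.39 times as dense as the middle (interval 1.28 to 1.51), within the range of 1.3 (X) to 1.41 on the other chromosomes. The same ratio was 1.46 in the replicate 1 list and 1.29 in the replicate 2 list. For peaks found in both replicate lists it was 1.17, with 355 in the left, 351 in the middle and 465 in the right part. Their left part was thus hardly denser than the middle. Among the best-scoring 10% of series-wide peaks the ratio was 1.27, with an interval of 0.977 to 1.65 that reaches below 1. Covered bases followed the peaks, at 17.8% of the left, 13.1% of the middle and 18.4% of the right part. Scores and widths differed less between the parts than densities did. The median score was 5.86 in the left, 5.7 in the middle and 6.19 in the right part, and the median width was 329, 339.5 and 338 bp in the same order.

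Blocks in the middle part were fewer and broader. Replicate 1 had 182 blocks in the left part with a median width of 2566.5 bp, 132 in the middle with 3416 bp and 203 in the right with 2917 bp. Replicate 2 had 182 with 2391 bp, 148 with 3066.5 bp and 201 with 2599 bp. Both lists therefore had their widest median block in the middle. Blocks of 10 kb or more numbered 16, 20 and 22 in the left, middle and right part of replicate 1, and 11, 12 and 14 in replicate 2.

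The left and right parts had nearly equal densities of series-wide peaks but different support. Their ratio of densities, right over left, was 0.998 (interval 0.916 to 1.09), and 1.11 with outer parts of 25% each. In the replicate lists it was 1.12 (replicate 1, interval 0.909 to 1.37) and 1.1 (replicate 2, interval 0.899 to 1.36). In the left part 355 of 1076 peaks (33.0%, interval 30.2 to 35.9%) were found in both replicate lists, in the middle 351 of 772 (45.5%, interval 42.0 to 49.0%), and in the right 465 of 1074 (43.3%, interval 40.4 to 46.3%). Among peaks found in both, the right part was 1.31 times as dense as the left. Peaks in neither list were 30.6% of the left, 20.7% of the middle and 23.8% of the right part. On the other 5 chromosomes the left parts had 33.8 to 40.7%, the middle parts 35.0 to 41.8% and the right parts 38.3 to 42.3% in both lists, so III had the lowest left part and the highest middle and right parts of the 6. Lower support on the left than on the right was not particular to III. It was also seen on X (33.8 and 41.5%), IV (36.3 and 42.3%), V (34.7 and 40.6%) and II (36.9 and 38.3%). On I it was the reverse (40.7 and 39.2%). The left part of X had 33.0% of its peaks in neither list, more than that of III. These differences between parts were not tested, as peaks of 1 stretch share its reads.

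At a scale of 0.5 Mb, the number of series-wide peaks ranged from 61 to 175 over 27 complete bins, with a median of 102. The fullest bin was 12.5 to 13 Mb with 175 peaks, 1.72 times the median, followed by 1.5 to 2.0 Mb with 157 and 2.0 to 2.5 Mb with 148. The emptiest were 7.5 to 8.0 Mb with 61, 8.5 to 9.0 Mb with 64 and 9.0 to 9.5 Mb with 70. The bins with fewest peaks thus lay right of the middle of the chromosome. The first bin, from 0 to 0.5 Mb, held 102 peaks and the last complete one, from 13 to 13.5 Mb, held 95. Past 13.5 Mb, 66 peaks lay in the remaining 0.272 Mb, or 242.2 per Mb.

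**Figure D3:**
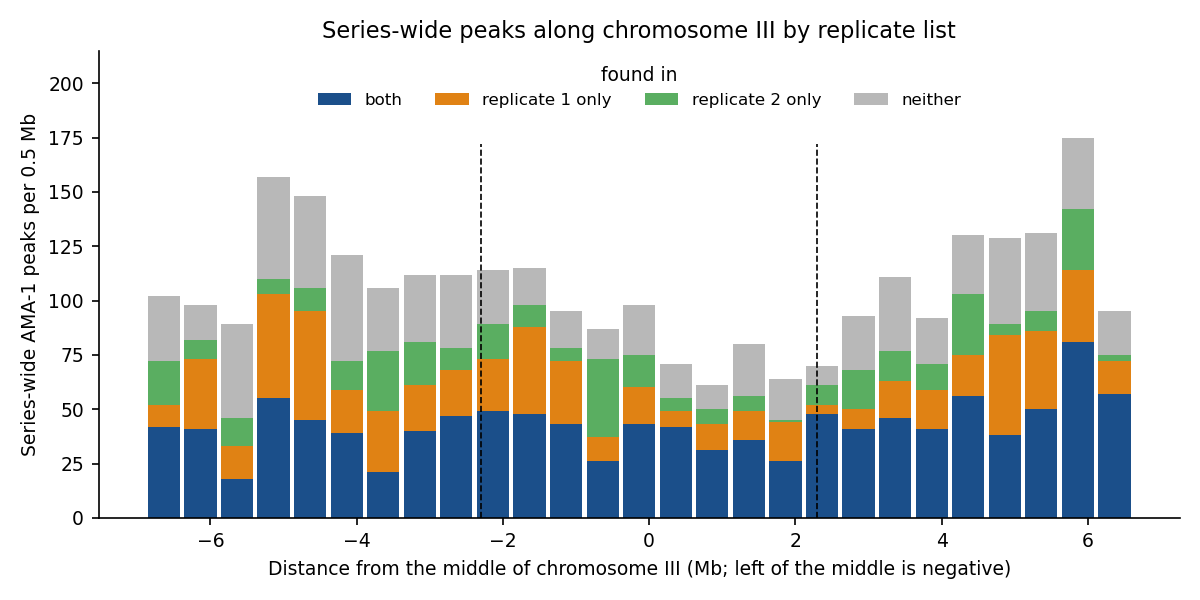
Number of series-wide AMA-1 peaks per 0.5 Mb bin of III (y) against the distance of the bin from the middle of the chromosome in Mb (x), stacked by the replicate lists that hold them; dashed lines mark the 3 equal parts. Counts run from 61 to 175, with the fullest bin near the right end and low bins right of the middle.

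Support also varied between bins. The share found in both lists was highest from 9.0 to 9.5 Mb, a sparse bin, at 68.6% of 70 peaks. It was 60.0% of 95 peaks from 13 to 13.5 Mb. The lowest values were on the left, at 19.8% of 106 peaks from 3.0 to 3.5 Mb and 20.2% of 89 peaks from 1.0 to 1.5 Mb. In the bin from 1.0 to 1.5 Mb, 43 peaks (48.3%) were in neither list, the highest such share of the 27 bins. Of these 43, 21 lay in a single stretch of 28.8 kb, from 1065619 to 1094382. In the fullest bin, from 12.5 to 13 Mb, 46.3% of the 175 peaks were in both lists.

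The 12.5 to 13 Mb bin stood out in every list. There 31.7% of the bases lay in series-wide peaks, 35.7% in replicate 1 and 29.5% in replicate 2, each the highest value of its list on III. The lowest were 9.64%, 11.3% and 9.74%. Elsewhere the replicates diverged in places. From 2.0 to 2.5 Mb replicate 1 covered 24.0% and replicate 2 13.6%, and from 6.0 to 6.5 Mb replicate 1 covered 11.4% and replicate 2 18.2%. Over the 27 bins the covered shares of the replicates had a rank correlation of 0.53, and over 137 windows of 100 kb it was 0.82. These are descriptions over stretches of 1 chromosome from libraries of the same kind, whose depths are not known.

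**Figure D4:**
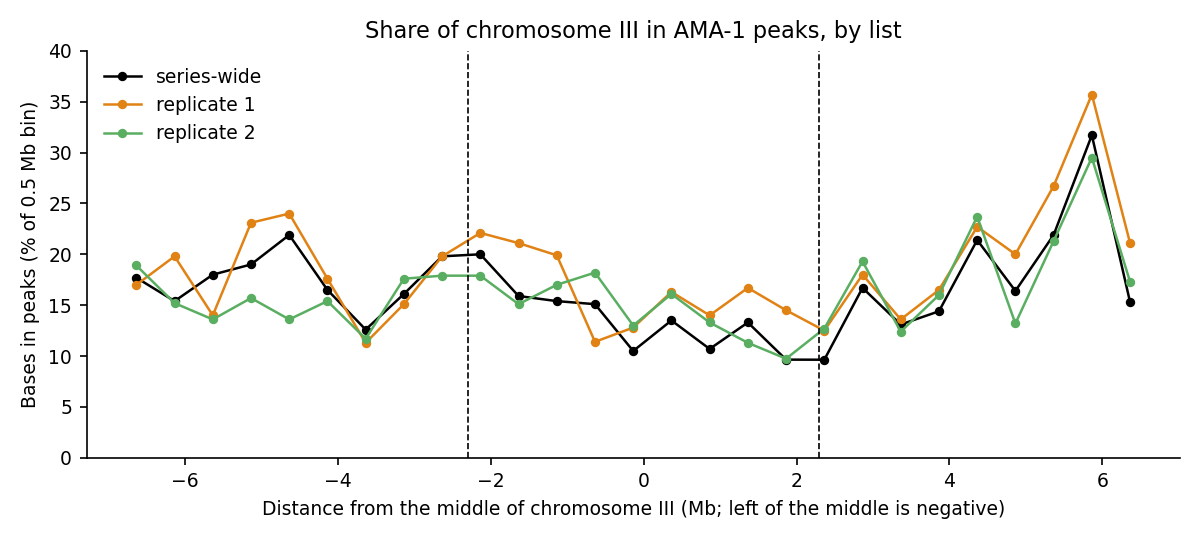
Bases of III in AMA-1 peaks, as a percentage of each 0.5 Mb bin (y), against distance from the middle of the chromosome in Mb (x), for the series-wide and both replicate lists; dashed lines mark the 3 equal parts. The lists meet in a maximum near the right end (31.7, 35.7 and 29.5%) and part most clearly on the left, where 1 bin is at 24.0% in replicate 1 and 13.6% in replicate 2.

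At a finer scale peaks came in groups. Between neighbouring series-wide peaks the median distance was 436 bp (quartiles 156 and 1647 bp), and 67.8% of the 2921 distances were at most 1 kb. Joining peaks at most 1 kb apart gave 188 clusters of 5 or more peaks, with 1614 members (55.2%). A further 893 peaks stood in 338 groups of 2 to 4, and 415 (14.2%) stood alone. A cluster had a median of 7 peaks and a median span of 7.25 kb, and all clusters together spanned 1.94 Mb, or 14.1% of III. There were 13.7 clusters per Mb on III, against 4.46 (X) to 14.2 (I) on the other chromosomes.

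Clustered peaks were wider and better supported than the rest. Their median width was 414 bp, against 284 bp for the 1308 peaks outside clusters, their median score 6.6 against 5.34, and the share found in both lists 49.6% against 28.4%. The shares inside and outside clusters were not taken over all chromosomes, so they do not set III apart. Joining depends on peak ends, so wide peaks are more easily joined. Neighbours in a cluster can also lie in the same replicate block, which then counts as support for each of them. Of the 188 clusters, 153 had bases in both replicate lists, 16 in replicate 1 only, 17 in replicate 2 only and 2 in neither. The left part had 72 clusters, the middle 48 and the right 68.

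The cluster with most peaks lay in the middle part, from 7132963 to 7171882. It held 25 peaks over 38.9 kb, which filled 83.1% of it, and 22 of the 25 were found in both replicate lists. These 22 were also the longest unbroken run of peaks found in both lists on III. Replicate 1 covered 97.0% of the cluster and replicate 2 98.3%. In replicate 1 it was a single peak of 37.7 kb, and in replicate 2 the same stretch was covered by 3 peaks, the widest of 25 kb.

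The longest cluster, from 2133716 to 2175024 in the left part, looked different in the replicates. It held 22 peaks over 41.3 kb with a median score of 13.42. Replicate 1 covered 87.3% of it and replicate 2 26.3%, so that 7 of the peaks were in both lists and 9 in replicate 1 only. The reverse was seen from 3788912 to 3819649, a cluster picked out after its values were seen, where 18 peaks spanned 30.7 kb. Replicate 1 covered none of that cluster, replicate 2 covered 71.8%, and the best series-wide score was 43.56.

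The remaining clusters with most peaks or greatest span varied in how evenly the replicates covered them. The one from 11062611 to 11101276 held 20 peaks over 38.7 kb and included the strongest peak of III. Replicate 1 covered 93.3% of it and replicate 2 73.8%. The one from 5193071 to 5208969 held 19 peaks in 15.9 kb, was covered fully in replicate 1 and to 50.3% in replicate 2, and had a best score of 22.87. Many peaks in a short span thus did not require a high score. Among the longest, the cluster from 12594010 to 12629166 held 13 peaks over 35.2 kb, covered to 98.5% in replicate 1 and 97.0% in replicate 2. The cluster from 12534389 to 12566248 held 11 peaks over 31.9 kb, covered to 99.1% in replicate 1 and 12.2% in replicate 2. Both lie in the fullest bin of III, so that bin held a cluster covered in both replicates and a cluster covered mainly in replicate 1.

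The widest peaks differed in scale between the lists. In the series-wide list the widest 5 were 18.8, 17.3, 16.5, 16.0 and 15.8 kb, of which the first 3 start at 1914067, 2785065 and 11109900 and the others at 12603902 and 12545215. In replicate 1 they were 37.7, 32.8, 30.1, 27.6 and 25.8 kb and in replicate 2 32.3, 27.7, 25, 23.9 and 23.8 kb. The blocks that hold positions 7141204, 12603902, 4269988 and 10743906 were among the widest 5 in both replicate lists.

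Some dense clusters were all but absent from both replicate lists. The cluster from 1065619 to 1094382 held 23 series-wide peaks over 28.8 kb, filled to 83.5%, with a best score of 42.11. Replicate 1 had no base there and replicate 2 covered 5.67%, and 21 of the 23 peaks were in neither list. A cluster from 10460082 to 10476516, also picked out after its values were seen, held 18 peaks over 16.4 kb, with a best score of 15.05, and all 18 were in neither. It belongs to the longest run of consecutive peaks in neither list, 24 peaks from 10457706 to 10556627. It also lies in the fullest window of 100 kb, from 10.4 to 10.5 Mb, where 66 series-wide peaks were listed and 32 of them were found in both lists.

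**Figure D5:**
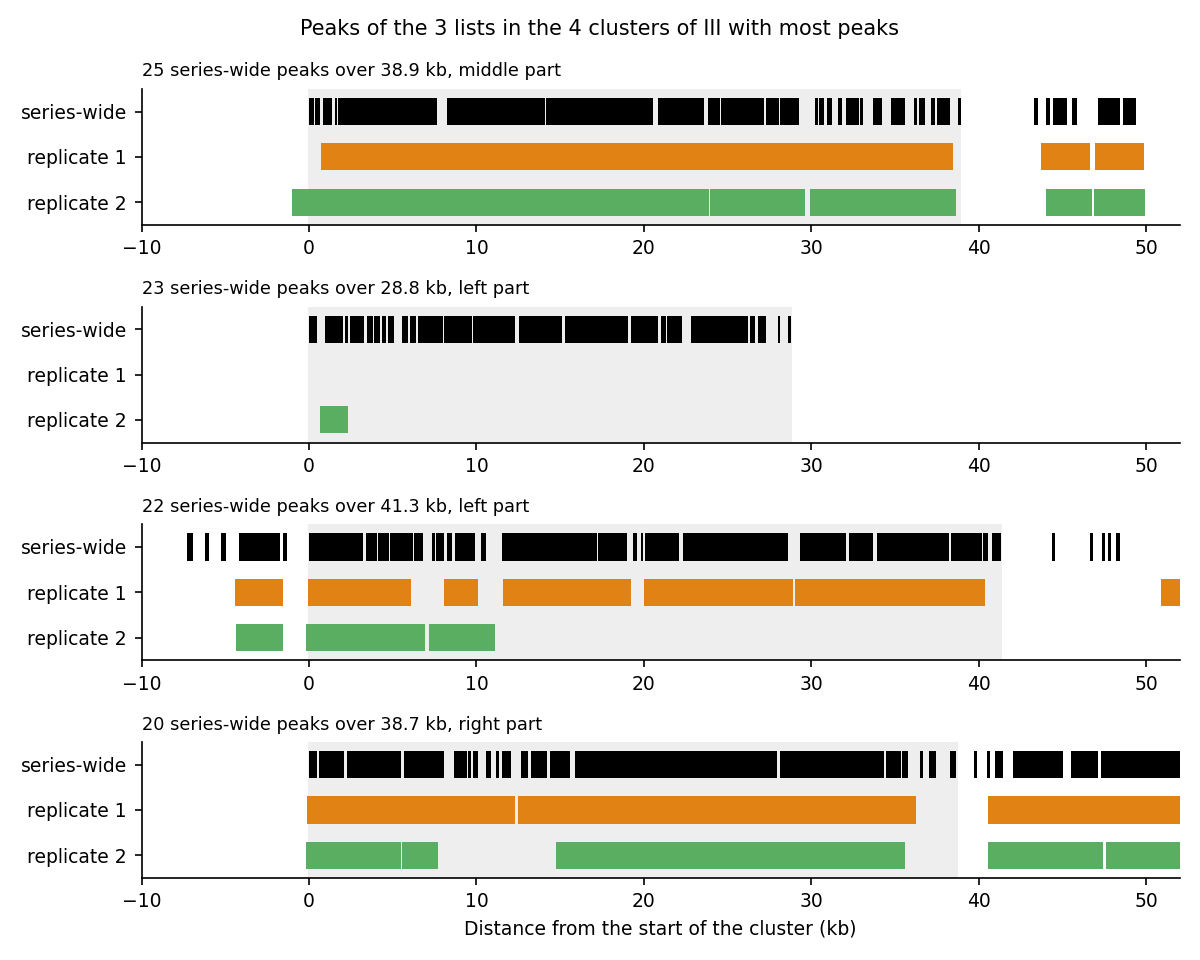
Peaks of the series-wide, replicate 1 and replicate 2 lists in the 4 clusters of III with most series-wide peaks, against distance from the start of each cluster in kb; grey marks the cluster. The first (25 peaks, 38.9 kb) is covered in all lists, the second (23 peaks, 28.8 kb) has 5.67% of its length in replicate 2 and none in replicate 1, and the third (22 peaks, 41.3 kb) is covered to 87.3% in replicate 1 and 26.3% in replicate 2.

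Among single peaks, the 20 of highest series-wide score ran from 199.43 down to 90.85, and the next peak had 87.37. All 20 were found in both replicate lists, against 83.6% of the best-scoring 10% on III and 89.9% of that 10% over all chromosomes. The 20 peaks were 1.7 to 17.3 kb wide with a median of 6.61 kb, and 12 of the 20 lay inside clusters. Wide peaks meet the rule of 1 bp more easily, and the replicate lists are not independent support, so the full count arises in part by construction. By part, 7 were on the left, 3 in the middle and 10 on the right. Of the peaks on the right, 5 lay between 12 and 13 Mb. In replicate 1 the block that held the peak was at the ceiling for 17 of the 20, in replicate 2 for 15, and in both for 14.

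The strongest stretch of III lay just past 11 Mb in the right part. It held 3 of the 20 peaks, from 11078492 to 11090565 (score 118.35), from 11090744 to 11096933 (199.43) and from 11109900 to 11126356 (118.69). The first pair lay in a replicate 1 block of 23.8 kb and a replicate 2 block of 20.9 kb, and the last in blocks of 25.8 and 16.3 kb, all at the ceiling. Blocks of 10 kb or more numbered 58 of 517 in replicate 1 and 37 of 531 in replicate 2 on III. The middle part had its strongest peaks side by side, from 7134708 to 7140606 (182.95) and from 7141204 to 7147065 (171.99), inside the cluster of 25 peaks described above. Its remaining peak among the 20 ran from 5938477 to 5945083 (99.66), in ceiling blocks of 12.4 and 7.88 kb.

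Between 12 and 13 Mb the strongest peaks were separate blocks. They ran from 12249518 to 12253665 (173.62), from 12293658 to 12298475 (141.49), from 12365567 to 12373849 (160.03), from 12603902 to 12619948 (93.06) and from 12682358 to 12689003 (129.81). The peaks of 173.62, 160.03 and 129.81 were 4.15, 8.28 and 6.65 kb wide. Their blocks spanned 9.65, 9.66 and 9.05 kb in replicate 1 and 8.35, 8.81 and 7.97 kb in replicate 2, all at the ceiling. The peak of 93.06 lay in the widest replicate 2 block of III, 32.3 kb and scored 2653.34, and in a replicate 1 block of 32.8 kb at the ceiling. The peak of 141.49 lay in blocks of 16.8 kb at the ceiling in replicate 1 and 23.9 kb with a score of 2216.03 in replicate 2. Still on the right, the peak from 9717158 to 9726162 (166.16) was nearly as wide as its blocks, at 9.01 kb against 10.1 kb in replicate 1 and 9.35 kb in replicate 2.

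On the left the strongest peaks had midpoints at 0.0899, 0.91, 2.56, 2.79, 3.87, 4.0 and 4.28 Mb. The best of them, at 89004 to 90699, scored 141.49, was 1.7 kb wide and lay near the left end of the chromosome. The other 6 were those from 4269988 to 4284078 (139.37), 3867782 to 3873530 (111.81), 3997481 to 4001677 (105.28), 906508 to 913106 (99.48), 2785065 to 2802384 (97.57) and 2561312 to 2567679 (90.85). The peak of 105.28 stood in compact blocks at the ceiling, 4.7 kb wide in replicate 1 and 4.57 kb in replicate 2. The peak of 139.37 stood in blocks of 30.1 and 23.8 kb.

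A high series-wide score did not always go with a high replicate score. The peak from 89004 lay in a replicate 1 block of 15.9 kb with a score of 145.27, below the median of 237.31 on III, and in a replicate 2 block of 5.45 kb with 1105.93. The peak from 10743906 to 10752898 (91.38) lay in blocks of nearly the same extent, 27.6 kb in replicate 1 and 27.7 kb in replicate 2. Their scores were 1197.1 in replicate 1 and 94.38 in replicate 2, which placed the block at rank 93 of 517 and at rank 398 of 531. The widest series-wide peak of III, 18.8 kb from 1914067 to 1932842, had a series-wide score of 23.32, a replicate 1 score of 876.35 and a replicate 2 score of 78.91. Across the 1171 peaks found in both lists, the series-wide score had a rank correlation of 0.29 with the best replicate 1 score and of 0.23 with the best replicate 2 score, where many peaks share a block and so a replicate score.

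Some strong blocks had no partner in the other replicate. In replicate 1 the best-scoring was at the ceiling, 19.2 kb from 12542834 to 12561992, with a series-wide peak of 81.59 inside it and the nearest replicate 2 peak 0.361 kb away. The next 4 ran from 2153701 to 2162629 (score 2332.2), 2145308 to 2152922 (2089.27), 12539738 to 12542741 (1827.6) and 4238633 to 4244855 (1148.72). The first pair of these lies in the 41.3 kb cluster above, and the block from 12539738 adjoins the one at the ceiling. In replicate 2 the best-scoring was 20.2 kb from 13583854 to 13604046. It scored 1671.78, and the nearest replicate 1 peak was 21.6 kb away. It was followed by 6977576 to 6983369 (1462.09), 3810369 to 3820173 (1301.94), 6372046 to 6377735 (1275.95) and 11469319 to 11473658 (862.95). Each of these 10 blocks overlapped at least 1 series-wide peak, with best scores from 10.78 to 81.59. As read depth is unknown, the missing partner is an absence from a list and not a measured lack of polymerase.

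Most of the best-scoring series-wide peaks outside both lists lay in a single cluster on the left. Of the 745 peaks in neither list, 6 (0.805%) had a score of 20 or more, against 17 of 3965 (0.429%) over all chromosomes. The other chromosomes ranged from 0 (IV and X) to 0.735% (V), so III had the highest share, a rank that was not tested. Of the 6 on III, 4 lie in that cluster, the one of 23 peaks near 1.07 Mb. Of the best 5, those from 1088442 to 1091834 (42.11), 1075403 to 1077921 (31.05) and 1080881 to 1084699 (30.91) belong to that cluster. The others ran from 4484510 to 4489787 (34.07), in a cluster with 14 of 16 peaks in neither list, and from 10624528 to 10624832 (33.72). The last is 305 bp wide, and its nearest replicate peaks are 17.9 kb away in replicate 1 and 20.7 kb in replicate 2.

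Between the blocks, 76.4% of III (10.5 Mb) was free of a peak in any list. Free stretches of 20 kb or more numbered 177 and took up 51.5% of the chromosome. The longest ran from 11329743 to 11454023 (124.3 kb), 9291962 to 9401635 (109.7 kb), 7388001 to 7494024 (106.0 kb), 6729741 to 6828325 (98.6 kb) and 4603002 to 4698182 (95.2 kb). On the left the longest was 94.4 kb, from 1218529 to 1312947. Stretches of 20 kb or more were most frequent in the middle part, with 55 on the left, 69 in the middle and 53 on the right. Those of 50 kb or more were fewest there, with 18, 8 and 14 in the same order. III had the shortest longest stretch of the 6 chromosomes, 124.3 kb against 141.1 (I) to 358.8 kb (V) on the others. III also had the shortest span, 13772479 bp against 15052390 (I) to 20870496 bp (V), and more peaks per Mb than all others but I. The rank of its longest stretch is therefore not separate from length and density. III had 2.9 stretches of 50 kb or more per Mb, against 3.12 (I) to 6.04 (X).

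The outermost peaks of III differed between the lists. No list had a peak in the first 57324 bp, which is 1 of the free stretches of 50 kb or more. The first peak was at 57635 to 57963 in the series-wide list (score 1.96), at 57325 to 59250 in replicate 1 (171.9) and at 74660 to 76728 in replicate 2 (137.1). The last replicate blocks, 4636 bp wide in replicate 1 and 5151 bp in replicate 2, both held the series-wide peak from 13767528 to 13771184, which had a score of 27.1. The last series-wide peak, from 13771996 to 13772216, had a score of 4.5 and lay in the replicate 2 block and past the end of the replicate 1 block. The last peak end was used as the end of III, so distances to the right end of the chromosome are not given.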

How the data were processed

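AMA-1 ChIP-seq peaks of 2 ChIP replicates and a series-wide list were used. Per the file headers, coordinates are WormBase WS220. The source columns name MACS for the replicate lists and MACS v2 for the series-wide list, and the submitters' processing notes name BWA and ce10. How peaks were called, whether input was used and how replicates were combined is not given in the sources used here. The deposited score has no unit, so scores were compared within a list. Other columns used were the deposited start and end of each peak.

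Computed here were overlaps (at least 1 bp), widths, densities from position 1 to the last peak end, 3 equal parts, 0.5 Mb bins by peak midpoint, clusters (at least 5 peaks, each at most 1 kb from the next) and free stretches. Functions were tested on simulated data. Shares have 95% Wilson intervals, and density ratios intervals from the exact binomial share. Both cover counting error only. Read depth is unknown. No p-values were computed, since peaks of 1 list are not replicates. Named regions were the 20 best-scoring series-wide peaks, the best-scoring peak of each part, the first and last peaks, and the extremes of each measure (up to 5 each). Members, lists and measures were chosen with earlier results of these data known. Alternatives covered overlap rules, score thresholds, divisions, bins, joining distances and single lists. Python 3.11.15, numpy 2.4.6, scipy 1.17.1, pandas 2.3.3 and matplotlib 3.10.9 were used.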

Additional observations from a re-analysis of the deposited data

How the results depend on the processing

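The share of series-wide peaks of III found in both replicate lists was 37.7% when 50% of the shorter peak had to overlap, 37.6% by midpoint, 55.9% among the better-scoring 50% and 83.6% among the best-scoring 10% of peaks. When a single list had to hold the peak, which raises the share by construction, it was 53.0% (without replicate 1) to 61.6% (without replicate 2). Replicate sharing was 57.1% (replicate 1) and 55.6% (replicate 2) with 50% of each peak required, 67.1% by midpoint for replicate 1, and 68.3% and 70.3% for the better-scoring 50% of both lists. Keeping 50% of both lists also removes possible partners, which lowers the sharing in part by construction. The outer-to-middle ratio stayed above 1 in all 7 alternatives and was lowest, 1.17, for peaks found in both lists. Of those peaks, 355 lay in the left, 351 in the middle and 465 in the right part, so the excess was mainly on the right. Outside the 7 alternatives, the ratio for the best-scoring 10% of peaks was 1.27 (interval 0.977 to 1.65). The right-to-left ratio was 1.11 with outer parts of 25% each, 1.31 for peaks found in both lists, 1.12 in the replicate 1 list and 1.1 in the replicate 2 list. There were 50 clusters of at least 10 peaks, and 60 clusters when the better-scoring 50% of peaks was used, which leaves fewer peaks to join. Density relative to the other autosomes was 1.25 in the replicate 1 list. The longest free stretch was 124.5 kb in the series-wide list alone, and 124.3 kb (without replicate 2) to 124.5 kb (without replicate 1) with 1 replicate list left out. The fullest bin was 1.46 times the median with bins of 1 Mb and 2.0 times by covered bases. All 20 strongest peaks were also in both lists when 50% of the shorter peak had to overlap. A ranking by replicate scores shared 14 of the 20, and its peaks are in both lists by construction. The causes of these shifts were not tested. No paired analysis was possible because the result comes from no test and the input libraries, which share replicate numbers with the ChIP libraries, were not analysed here.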
